A study of Mus musculus with 6 samples.

Results

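The genes described here are a small set of NF-kB factors and chemokines in mouse collecting duct cells given a vasopressin analog or vehicle. The rule named 10 genes: the NF-kB subunits Nfkb1 and Relb, the inhibitors Nfkbia and Tnfaip3, and the chemokines Cxcl1, Cxcl10, Cxcl16, Ccl2, Ccl20 and Cx3cl1. Every probe set whose platform annotation gave exactly 1 of these symbols was taken, without regard to its values. This gave 6 of the 12364 named genes in the deposited table, with 16 of 28225 probe sets: 5 for Nfkbia, 3 each for Cxcl1 and Cx3cl1, 2 each for Tnfaip3 and Cxcl16, and 1 for Relb. Nfkb1, Cxcl10, Ccl2 and Ccl20 matched no probe set (0) and were not analysed here. No probe set with several gene symbols named a member (0). After 5 days of dDAVP 0 of the 16 passed the limma test over all probe sets, of which 0.216% passed (2 of the 16 at an unadjusted p below 0.05, against 7.98%), and on the deposited scale their 95% intervals lay between 0.718-fold and 1.31-fold of the vehicle signal.

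The cells were mpkCCD clone 11, an immortalised line from the cortical collecting duct of mouse kidney and a single clone, so no group speaks for other clones or for the tissue. Both groups were grown as polarized layers on membrane supports until the electrical resistance of the layer was high. The treated group then had 0.1 nM dDAVP (desmopressin, an agonist of the vasopressin V2 receptor) for 5 days, and the control group had vehicle for the same time. Total RNA of each group was hybridised to 3 Affymetrix mouse arrays, labelled as biological replicates. The sources used here do not say whether the cultures came from separate passages or days, and the p-values cover only the spread among these 6 samples.

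NF-kB is a family of dimeric transcription factors that IkB proteins hold in the cytoplasm. Signals from TNF, IL-1 and Toll-like receptors activate the IKK kinase complex, which marks IkB for destruction and frees the dimer to enter the nucleus. Among its target genes are its own inhibitors, which close a feedback loop, and chemokines, secreted or membrane-bound proteins that attract leukocytes. Kidney tubule epithelium is a known source of chemokines in inflammation. NF-kB activity is set largely by the location and modification of its proteins, which arrays of RNA do not measure.

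Signals are the deposited log2 values, so a difference of 1 is a doubling. The brightness of a probe set depends on its probes, and the groups are therefore compared within a probe set. Levels were set across probe sets to place dim and bright ones, to pick the brightest of a gene and to sum markers. Such placements are rough. The medians of the 6 arrays spanned 0.043 log2 units, and any pair of arrays correlated at 0.996 or more. The treatment showed in Aqp2, the vasopressin-regulated water channel, at 6.70 ± 0.042 in vehicle and 10.85 ± 0.072 in dDAVP arrays (SD, n = 3). Of 16 listed principal cell markers 14 were in the table, and all 14 had means above 3.56, the 95th percentile of 10 probe sets for olfactory receptors. This value, called the olfactory receptor level here, is a reference for dim probe sets and not a detection limit, since kidney can express some of these receptors. Of all probe sets only 10.8% lay at or below it, so a place above it says little about expression. Of the 17 leukocyte markers listed 8 were in the table, and 5 of these were above that level. Of these 8, 6 had a positive change, with a median of 0.091, beside 0.012 for all genes. By limma 0 were called and 1 was higher at an unadjusted p below 0.05, against 0.291% and 5.51% of all genes. That was the macrophage marker Cd68 (0.20 ± 0.079, SE), whose groups were separate, as were 13.4% of all probe sets. The summed signal of the 8 was 10.03 to 10.13 in vehicle and 10.01 to 10.06 in dDAVP arrays. These ranges overlap, but the sum weighs bright probe sets most. Csf1r was at 9.42 ± 0.094 in vehicle and 9.29 ± 0.070 in dDAVP arrays and Cd14 at 8.16 ± 0.061 and 8.25 ± 0.076, while the pan-leukocyte marker Ptprc (3.11 and 3.32, a change of 0.22 ± 0.099, adjusted p = 0.642) and the B cell marker Ms4a1 (2.65 and 2.65) lay below 3.56 in both groups. The part of these markers in the results below was not tested. In bulk RNA, fewer cells of a type and less RNA per cell cannot be told apart.

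The stretches upstream of 4 measured genes are shown to place NF-kB-like letters beside the expression values. RefSeq (GRCm38.p6) gave start sites for Nfkbia, Tnfaip3, Cxcl1 and Cx3cl1, 5 sites in all. Each line is the 250 bases before a start, 5′ to 3′ on the strand of the gene. Capitals mark every match to GGGNNTTTC on either strand, with overlapping matches allowed. This is a loose pattern that resembles the NF-kB consensus, and a match need not fit the full consensus. The sites are chr12:55492648-55492897 (minus strand) for Nfkbia, chr10:19015411-19015660 (minus) for the farther upstream of the 2 Tnfaip3 starts, chr5:90890995-90891244 (plus) for Cxcl1 and chr8:94771930-94772179 (plus) for Cx3cl1.
Nfkbia: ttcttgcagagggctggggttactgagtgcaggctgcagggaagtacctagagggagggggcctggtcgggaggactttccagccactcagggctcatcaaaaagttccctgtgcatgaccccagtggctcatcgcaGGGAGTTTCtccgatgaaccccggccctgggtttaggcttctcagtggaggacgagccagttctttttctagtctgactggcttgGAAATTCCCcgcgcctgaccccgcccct
Tnfaip3: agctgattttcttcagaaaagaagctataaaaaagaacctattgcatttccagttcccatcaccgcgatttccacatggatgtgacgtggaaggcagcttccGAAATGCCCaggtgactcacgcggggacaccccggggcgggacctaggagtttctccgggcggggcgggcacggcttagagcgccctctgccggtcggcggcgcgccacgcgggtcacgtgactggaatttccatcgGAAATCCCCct
Cxcl1: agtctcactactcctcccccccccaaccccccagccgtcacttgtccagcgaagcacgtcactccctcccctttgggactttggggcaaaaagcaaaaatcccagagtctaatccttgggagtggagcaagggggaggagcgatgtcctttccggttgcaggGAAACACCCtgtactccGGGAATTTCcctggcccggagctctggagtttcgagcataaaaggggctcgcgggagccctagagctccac
Cx3cl1: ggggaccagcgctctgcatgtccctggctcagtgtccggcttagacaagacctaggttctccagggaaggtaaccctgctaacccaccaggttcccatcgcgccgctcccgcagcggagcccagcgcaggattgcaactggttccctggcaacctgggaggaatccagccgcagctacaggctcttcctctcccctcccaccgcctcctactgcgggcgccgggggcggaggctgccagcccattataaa
The pattern occurred in 3 of these 4 genes, with 2 matches each. In Nfkbia the letters read along the gene were GGGAGTTTC, 113 to 105 bases before the start, and GAAATTCCC, a match on the opposite strand, 28 to 20 bases before it. In Cxcl1 they were GGGAATTTC at 71 to 63 bases and, on the opposite strand, GAAACACCC at 88 to 80 bases. Tnfaip3 held GAAATCCCC at 11 to 3 bases and GAAATGCCC at 148 to 140 bases, both on the opposite strand, and its other start had no match (0). Cx3cl1 had no match (0) in this window. Of all 32851 mouse start sites listed 3.72% held the pattern. CREB factors, which act downstream of cAMP, bind the palindromic cAMP response element TGACGTCA. It was found on 1.55% of all start sites and on none of these 5 (0), a count near that share. Only this full form was searched, so shorter forms of the element were not counted. These matches describe letters only. The pattern was chosen with the expression results known, and binding was not measured.

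With dDAVP, 0 of the 16 probe sets were called higher and 0 lower by limma, at an adjusted p (Benjamini-Hochberg) under 0.05. Of all 28225 probe sets 0.216% were called, 0.188% higher and 0.0283% lower. The adjusted p of the 16 ranged from 0.405 to 1.00, and no other tool was used. At an unadjusted p below 0.05 there were 2, 1 higher and 1 lower, or 12.5%, against 7.98% of all probe sets, 4.85% higher and 3.13% lower. The 3 vehicle and 3 dDAVP values did not overlap in 3 of the 16 (18.8%), with dDAVP above in 2 and below in 1. Among all probe sets 13.4% did not overlap, 8.07% with dDAVP above and 5.35% with dDAVP below. The changes had a positive sign in 10 and a negative sign in 6, with a median of 0.047 log2 units, beside 0.0039 for all probe sets. That balance depends on the scaling. When each array was scaled to its hybridisation controls the median of all probe sets moved to 0.15 and 15 of the 16 had a positive sign, again with 0 called. Of all 28225 probe sets 282 were then called.

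On the deposited scale, the 95% intervals of the 16 changes ran from -0.48 at the lowest to 0.38 at the highest, or 0.718-fold to 1.31-fold, and 14 of them included 0. These bounds move with the scaling: after scaling to the hybridisation controls they were -0.37 and 0.57, or 0.772-fold and 1.49-fold. After scaling to the poly-A controls they were 0.688-fold and 1.30-fold. The number of intervals that excluded 0 moved too. It was 2 on the deposited scale, 4 with the hybridisation controls and 1 with the poly-A controls. All 16 probe sets lay above the olfactory receptor level and 9 above the median of all probe sets. Only 10.8% of all probe sets lay at or below the olfactory receptor level, so this sets the 16 little apart. The signals of dim probe sets may be compressed, so the bounds for the dimmest Cxcl1 and Cx3cl1 probe sets apply to the deposited signal.

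**Figure D1:**
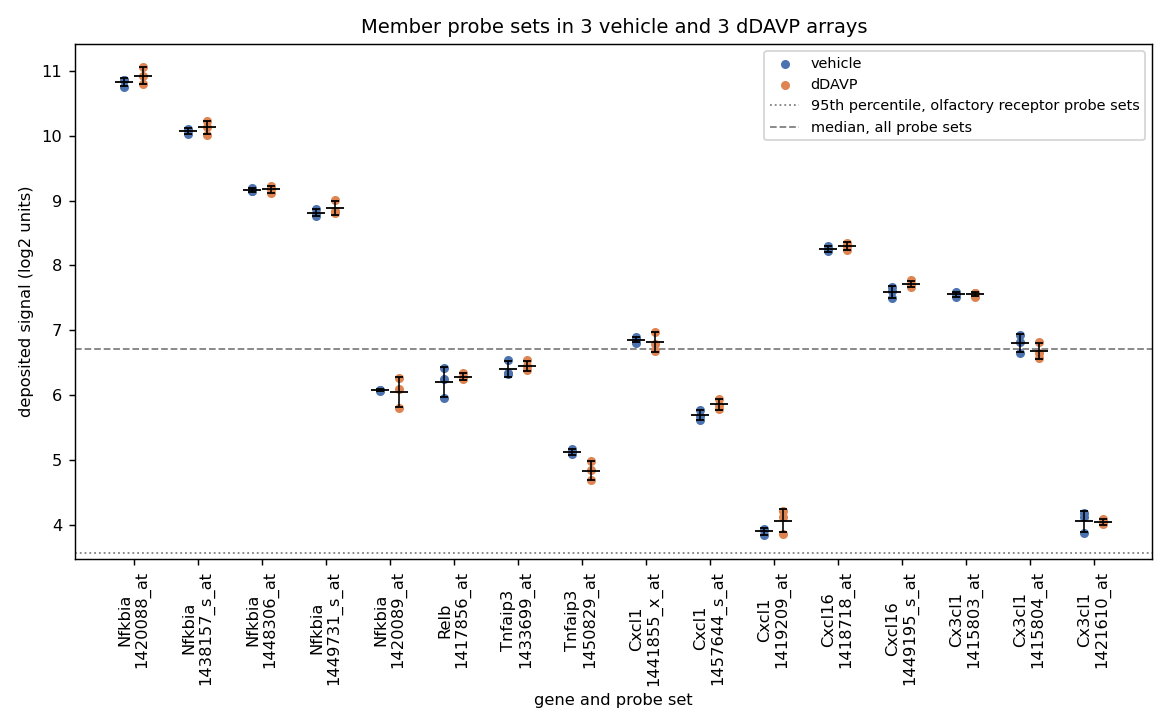
Deposited signal (vertical axis, log2 units) of the 16 probe sets in 3 vehicle arrays (blue points) and 3 dDAVP arrays (orange points), with the group mean and SD in black. The dashed line is the median of all probe sets and the dotted line the olfactory receptor level (3.56). All 16 lie above the dotted line, which only 10.8% of all probe sets do not exceed. The vehicle and dDAVP points overlap in 13.

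Of the factors that make up and hold NF-kB, Relb is the subunit that pairs with the product of Nfkb2 in the alternative pathway. Its signals were 6.41, 6.25 and 5.96 in vehicle arrays and 6.24, 6.34 and 6.27 in dDAVP arrays. The dDAVP values lay inside the vehicle range. The log2 change was 0.080 ± 0.11 (SE, limma adjusted p = 0.925), with an interval of -0.18 to 0.34. Vehicle arrays spread more (SD 0.23) than dDAVP arrays (SD 0.052), and without vehicle replicate 3, the lowest, the value was -0.045.

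Nfkbia encodes IkB-alpha, the classical inhibitor that NF-kB induces as feedback. Its brightest probe set read 10.76, 10.86 and 10.86 in vehicle arrays and 10.80, 10.92 and 11.06 with dDAVP. The groups overlapped, with dDAVP replicate 1 below 2 of the vehicle arrays and dDAVP replicate 3 highest of all. The log2 change was 0.099 ± 0.079 (limma adjusted p = 0.845), an interval of 0.943-fold to 1.22-fold. Without dDAVP replicate 3 it was 0.033.

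The other 4 Nfkbia probe sets also overlapped between groups. The next by brightness read 10.10, 10.03 and 10.11 in vehicle and 10.02, 10.14 and 10.23 in dDAVP arrays, a change of 0.054 ± 0.071. The probe set 1448306_at, annotated to a RefSeq transcript of Nfkbia, read 9.15, 9.14 and 9.20 against 9.12, 9.18 and 9.23, a change of 0.011 ± 0.059 with an interval of -0.13 to 0.15. The probe set 1449731_s_at read 8.80, 8.77 and 8.88 against 8.80, 8.83 and 9.01 (0.067 ± 0.073). Over all 5 the change ran from -0.022 to 0.099, and dDAVP replicate 3 was the highest of the 6 arrays in 4 of them. The exception was the dimmest, 1420089_at, at 6.09, 6.07 and 6.05 in vehicle and 6.26, 5.79 and 6.09 in dDAVP arrays. There the dDAVP SD was 0.24 against 0.015 in vehicle.

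Tnfaip3 encodes A20, a ubiquitin-editing enzyme that shuts off signalling to IKK and is itself an NF-kB target. Its brighter probe set, 1433699_at, read 6.54, 6.33 and 6.34 in vehicle and 6.45, 6.38 and 6.54 in dDAVP arrays, which overlap. The log2 change was 0.052 ± 0.079 (limma adjusted p = 0.932). Its dimmer probe set, 1450829_at, read 5.17, 5.09 and 5.10 in vehicle and 4.68, 4.84 and 4.98 with dDAVP. Here every dDAVP value lay below every vehicle value. The change was -0.28 ± 0.083 (interval -0.48 to -0.092, unadjusted p = 0.00939), with an adjusted p of 0.405 that did not pass, and this was the lowest p among the 16. The 2 probe sets thus gave changes of opposite sign for 1 gene, and the mean of both was -0.12 (adjusted p = 0.683). The difference between the probe sets was not tested. Leaving out 1 array at a time, the change of 1450829_at lay between -0.36 and -0.21, and its adjusted p over all its alternatives was 0.328 to 0.869. Scaled to the hybridisation controls, the change was -0.14 ± 0.11 (adjusted p = 0.383).

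Cxcl1 encodes a neutrophil chemokine that tubule cells can release. Its brightest probe set, 1441855_x_at, read 6.89, 6.86 and 6.81 in vehicle and 6.78, 6.68 and 6.98 in dDAVP arrays. The dDAVP values lay on both sides of the vehicle values, with a change of -0.040 ± 0.084 (limma adjusted p = 0.954). The suffix x marks a probe set with probes that may also bind other transcripts. The second, 1457644_s_at, read 5.77, 5.61 and 5.68 in vehicle and 5.78, 5.94 and 5.84 with dDAVP. Its groups were separate, although dDAVP replicate 1 and vehicle replicate 1 nearly met. The change was 0.17 ± 0.071 (interval 0.0021 to 0.33, unadjusted p = 0.0478, adjusted p = 0.619). The dimmest, 1419209_at, which is annotated to a RefSeq transcript of Cxcl1, read 3.92, 3.94 and 3.84 in vehicle and 3.86, 4.21 and 4.11 in dDAVP arrays, a change of 0.17 ± 0.095 (adjusted p = 0.742) with overlapping groups. By the mean of its 3 probe sets Cxcl1 was at 0.098 (adjusted p = 0.699), against -0.040 by the brightest.

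Cxcl16 encodes a chemokine made as a membrane protein and shed by ADAM10. Its brighter probe set read 8.22, 8.25 and 8.30 in vehicle and 8.24, 8.30 and 8.35 in dDAVP arrays, which overlap. The change was 0.042 ± 0.061 (limma adjusted p = 0.929), with an interval of 0.933-fold to 1.14-fold. The dimmer, 1449195_s_at, read 7.67, 7.49 and 7.60 against 7.69, 7.67 and 7.77. All dDAVP values were above all vehicle values, but the lowest of them exceeded the highest vehicle value by less than the printed digits show. Its change was 0.13 ± 0.069 (unadjusted p = 0.105, adjusted p = 0.731).

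Cx3cl1 encodes fractalkine, which like Cxcl16 is anchored in the membrane and shed by ADAM proteases. Its brightest probe set read 7.52, 7.59 and 7.56 in vehicle and 7.58, 7.57 and 7.52 in dDAVP arrays. These are almost the same values, with a change of -0.00013 ± 0.056 and an interval of 0.913-fold to 1.09-fold (limma adjusted p = 1.00). The second, 1415804_at, read 6.82, 6.93 and 6.66 against 6.81, 6.58 and 6.64, a change of -0.12 ± 0.093 (adjusted p = 0.830). The groups overlapped there too. The dimmest, 1421610_at, was at 4.05 ± 0.16 and 4.04 ± 0.046 (SD, n = 3), a change of -0.015 ± 0.088 (adjusted p = 0.984).

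**Figure D2:**
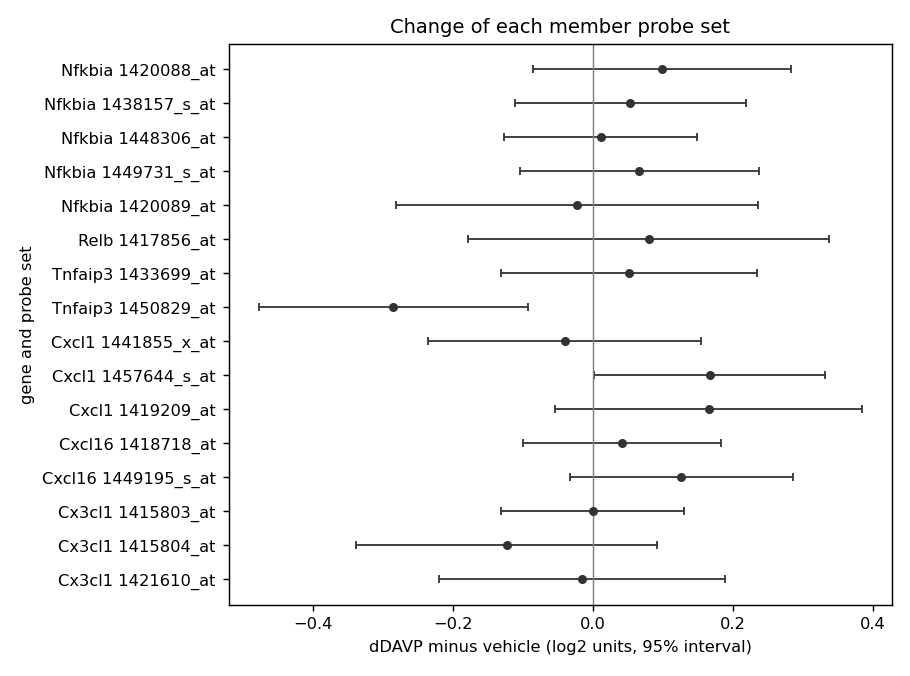
Change of each of the 16 probe sets, dDAVP minus vehicle (horizontal axis, log2 units), with the 95% interval of the moderated fit as bars. On the deposited scale shown, the intervals of 14 include 0. Those of Tnfaip3 1450829_at (-0.48 to -0.092) and Cxcl1 1457644_s_at (0.0021 to 0.33) do not, and neither of these passed after adjustment.

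Over the 16 probe sets the highest of the 6 arrays was dDAVP replicate 3 in 7, of which 4 were probe sets of Nfkbia. The other arrays were highest in 1 to 3 each. The share of all probe sets that were highest in dDAVP replicate 3 is not given here. For the gene whose brightest probe set had the lowest p, Nfkbia, the most similar profiles over the 6 arrays were those of Wasf1, an actin regulator (Pearson r = 0.992), Nfkbib, which encodes IkB-beta (0.990), and Ube2g2, a ubiquitin-conjugating enzyme (0.990). They were the top 3 of 12759 probe sets of other genes above the median level, and 35 had r above 0.95. This is a description over 6 arrays that share their scaling. Nfkbib itself read 7.24, 7.37 and 7.40 in vehicle and 7.29, 7.44 and 7.57 in dDAVP arrays, which like Nfkbia was highest in dDAVP replicate 3 and lowest in vehicle replicate 1.

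The wider pathway was described on 162 listed genes outside the 10, of which 90 were in the table, by the brightest probe set of each. By limma 0 of them passed in either direction, while 0.291% of all 12364 genes did. At an unadjusted p below 0.05, 9 were higher and 3 lower, beside 5.51% higher and 2.3% lower of all genes. The counts given for each list below are to be read against the same shares. The median change of the 90 genes was 0.035, beside 0.012 for all genes.

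Among the other subunits, Rela, which forms the main activating dimer with the Nfkb1 product, read 10.84, 10.95 and 10.83 in vehicle and 10.76, 10.91 and 10.85 in dDAVP arrays, a change of -0.030 ± 0.067. Nfkb2 was at 8.29 in vehicle and 8.35 in dDAVP arrays (0.064 ± 0.072). These groups overlapped, and 0 of the 3 other subunits measured had an unadjusted p below 0.05. The 10 other inhibitors measured had a median change of 0.085, with 0 called and 1 at an unadjusted p below 0.05. That was Nfkbiz, a nuclear IkB protein, named after its values were seen, which read 8.09, 7.89 and 8.19 in vehicle and 8.60, 8.35 and 8.47 in dDAVP arrays. Its groups were separate, which a choice by p makes likely, and the change of 0.42 ± 0.098 did not pass (limma adjusted p = 0.271). Bcl3, a nuclear IkB protein that can activate transcription, was at 0.20 ± 0.085 and Nfkbib at 0.098 ± 0.085 (adjusted p = 0.628 and 0.862).

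Of the 11 IKK kinases and activators measured 0 were called and 0 had an unadjusted p below 0.05. The catalytic subunit Ikbkb was at 0.10 ± 0.059 and the scaffold Ikbkg at 0.11 ± 0.081. Of the 15 adaptors measured 0 were called and 1 had an unadjusted p below 0.05. That was Irak2 (0.20 ± 0.058, limma adjusted p = 0.405), named after its values were seen. The fixed examples were Traf6, a ubiquitin ligase used by IL-1 and Toll-like receptors, at -0.12 ± 0.095 and Myd88, their shared adaptor, at -0.0032 ± 0.061. Of the 14 receptors measured 0 were called, and an unadjusted p below 0.05 was found for 1 higher and 1 lower. These, also named after their values were seen, were the bacterial lipoprotein receptor Tlr2 (0.28 ± 0.081, adjusted p = 0.404) and the IL-1 co-receptor Il1rap (-0.26 ± 0.099, adjusted p = 0.564), and neither passed. The TNF receptor Tnfrsf1a was at 8.86 and 8.87 (0.010 ± 0.074), the IL-1 receptor Il1r1 at -0.13 ± 0.081 and the endotoxin receptor Tlr4 at 0.077 ± 0.093. Only 3 of the 15 listed ligands were in the table, among them Il1b (4.23 and 4.17, -0.059 ± 0.091) and Il18 (5.46 and 5.71, 0.24 ± 0.12), with 0 called.

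The list of other NF-kB target genes had 16 of 26 members in the table, 0 called, and at an unadjusted p below 0.05 there were 4 higher and 1 lower (5.51% and 2.3% of all genes were). These 5, named after their values were seen, were Ptgs2, the inducible cyclooxygenase (0.40 ± 0.14), the urokinase Plau (0.40 ± 0.13), the cytokine Lif (0.22 ± 0.089), the early response gene Ier3 (0.22 ± 0.060) and the stress gene Gadd45b (-0.18 ± 0.063). Their adjusted p (limma) ran from 0.366 for Ier3 to 0.598 for Lif. The groups were separate in all but Ptgs2, which the choice of these genes by p makes likely. Among all probe sets 13.4% had separate groups. The iron-binding protein Lcn2, a known product of injured tubules, was at 9.75 in vehicle and 9.84 in dDAVP arrays (0.094 ± 0.069), and the mitochondrial superoxide dismutase Sod2 at 9.22 and 9.28 (0.063 ± 0.063). The adhesion molecule Icam1 was at 3.42 and 3.45, below the olfactory receptor level, and the growth factor Csf1 was at 7.57 and 7.44 (-0.13 ± 0.099). None of the genes named here passed the test (0).

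Of the 30 other chemokines listed 8 were in the table and 4 of those lay above the olfactory receptor level, with 0 called, a median of 0.064 and 1 at an unadjusted p below 0.05. That was the T cell chemokine Cxcl9, named after its values were seen, at 3.18 and 3.51 (0.34 ± 0.11, adjusted p = 0.467), means below the olfactory receptor level. The neutrophil chemokine Cxcl2 lay below it, at 3.36 and 3.46, and the mucosal chemokine Ccl28 was at 5.37 and 5.55 (0.17 ± 0.11, adjusted p = 0.771). Of the 24 chemokine receptors and sheddases listed 10 were in the table, with 0 called. An unadjusted p (limma) below 0.05 was found for Ccr2 (higher) and Ccr6 (lower), beside 5.51% higher and 2.3% lower of all genes. The proteases that shed Cxcl16 and Cx3cl1 were at 9.85 and 9.78 for Adam10 (-0.064 ± 0.078) and at 9.32 and 9.28 for Adam17 (-0.044 ± 0.059). The receptor for Ccl2, Ccr2, was below the olfactory receptor level at 2.83 and 3.10, and the receptor for Ccl20, Ccr6, was at 4.35 and 4.08. Their changes of 0.26 ± 0.070 and -0.27 ± 0.070 had adjusted p of 0.349 and 0.333.

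**Figure D3:**
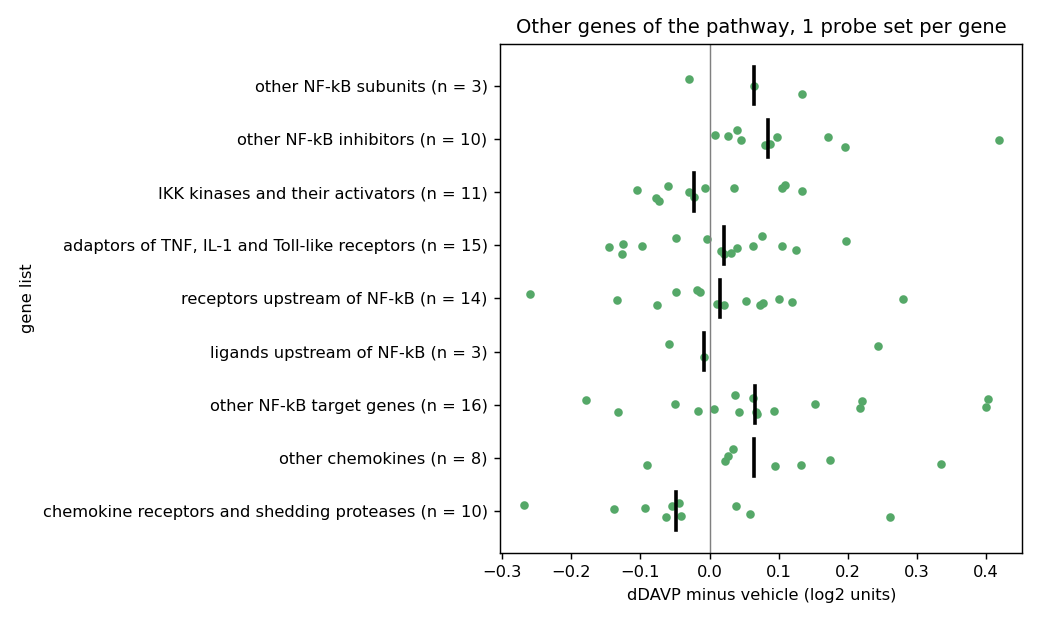
Change of each of the 90 other pathway genes, dDAVP minus vehicle (horizontal axis, log2 units), by list, with 1 green point per gene and a black bar at the median of the list. Medians lie between -0.049 for chemokine receptors and proteases and 0.085 for the other inhibitors, and no gene was called (0).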

How the data were processed

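RNA of 3 vehicle and 3 dDAVP cultures was measured on 1 Affymetrix array each. The authors deposited 1 log2 signal per probe set and array. Per the submitters' processing notes, the tools were MAS5, RMA and Affymetrix Expression Console 1.1, without roles. Which of these made the values was not stated in those notes. They were used as deposited. Such summaries can understate ratios where a probe set is dim. No read depth applies, and the number of arrays limits precision.

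The sample titles gave the groups and replicate numbers. All 28225 probe sets other than the 62 controls were fitted in limma 3.58.1 (R 4.3.3; lmFit, eBayes, dDAVP minus vehicle), with Benjamini-Hochberg adjustment over all of them, and a probe set was called at an adjusted p below 0.05. The moderated fit gave the standard errors (SE) and the 95% intervals. For a gene outside the 10 the brightest probe set over all 6 arrays was used. Symbols came from the platform annotation, and the Entrez IDs of the 6 measured members gave the same RefSeq symbols. Members and lists were chosen with earlier results of these data known. Named pathway genes were a fixed set, plus genes said to be named after their values were seen.

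The dDAVP against vehicle comparison was tested on simulated data with known changes. Alternatives were other scalings, filters, priors, thresholds, the replicate block, averaging the probe sets of a gene, and leaving out each array. Figures were drawn with matplotlib 3.10.9.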

Additional observations from a re-analysis of the deposited data

How the results depend on the processing

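No member probe set was called (0) under any alternative run: other scalings, filters on dim probe sets, priors, thresholds, the replicate block, averaging the probe sets of a gene, and leaving out each array. Few probe sets of any kind were called in such runs. Of all 28225, the main fit called 61, the fit without dDAVP replicate 2 called 22 and the replicate block 24. Scaling to hybridisation controls called 282. A count of 0 among 16 is near these shares. The smallest adjusted p among them was 0.124, for Cxcl1 1457644_s_at after scaling to hybridisation controls. With the replicate number as a block 0 were called (smallest adjusted p 0.502). Same-numbered samples correlated in their deviations from the group mean at 0.20, 0.046 and -0.052. Differently numbered samples were not compared, so these values cannot show whether the numbers pair the samples. The main fit used no pairing. The number of arrays limits what can be called, and smaller changes within the intervals given remain possible on these data.

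Signs changed in 20 of the recomputed values, none of them called before or after (0). Scaling to hybridisation controls gave 0.13 for Nfkbia 1420089_at, 0.11 for Cxcl1 1441855_x_at, and 0.15, 0.025 and 0.13 for Cx3cl1 1415803_at, 1415804_at and 1421610_at. For Nfkbia 1448306_at, median centring gave -0.0012 and scaling to poly-A controls -0.013. Averaging the probe sets of a gene gave -0.12 for Tnfaip3 and 0.098 for Cxcl1. Leaving out 1 array, the changes ran from -0.015 to 0.040 for Nfkbia 1448306_at, -0.13 to 0.11 for Nfkbia 1420089_at, -0.045 to 0.18 for Relb, -0.12 to 0.026 for Cxcl1 1441855_x_at, -0.017 to 0.018 for Cx3cl1 1415803_at and -0.11 to 0.048 for Cx3cl1 1421610_at.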
